A study of Mus musculus with 4 samples.

Results

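The 9 genes described here encode activin subunits (Inhba, Inhbb), follistatin and its relatives (Fst, Fstl1, Fstl3) and activin receptors (Acvr1, Acvr1b, Acvr2a, Acvr2b). They were chosen by symbol as a signalling family, and all 9 were found among 25736 genes with usable values in RNA of sorted mouse prostate stroma. The cells came from the proximal ducts, next to the urethra, and from the distal ducts, at the tips of the lobes, of adult C57BL/6 mice. Flow cytometry had kept Sca-1-positive cells that lacked CD24, CD49f and the lineage markers. There were 2 proximal libraries (proximal 2 and proximal 3) and 2 distal libraries (distal 2 and distal 3). Where a pair of values is given for a region, number 2 stands before number 3. No treatment or genetic change is named for either region, and the labels do not say whether separate or pooled animals were used, so p-values reflect library-to-library spread that may be technical. The submitters sought signalling in the stroma. Values are FPKM, fragment numbers divided by transcript length and by the mapped total, added up here over the transcripts of a gene.

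Activins are dimers of inhibin beta subunits that belong to the TGF-beta family. A dimer binds a type II receptor, Acvr2a or Acvr2b, which recruits and phosphorylates a type I receptor, typically Acvr1b, and this in turn activates Smad2 and Smad3. Follistatin and Fstl3 bind activin outside the cell and block its access to receptors. In the prostate, activin A is known as a growth inhibitor of epithelial cells, with follistatin as its antagonist.

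No member passed the test between regions, and several differed more between the libraries numbered 2 and 3 than between regions. Inhba was at 10.3 FPKM (proximal 2) and 32.1 FPKM (proximal 3), against 9.88 FPKM (distal 2) and 26.2 FPKM (distal 3). Over the 4 libraries the follistatin genes were the most abundant members, with means of 140.4 FPKM for Fstl1, 99.5 FPKM for Fst and 67.4 FPKM for Fstl3. The receptor through which activin usually signals, Acvr1b, did not exceed 0.441 FPKM.

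Across all genes the libraries were also more alike by number than by region. Pearson's r of log2(FPKM + 1) over 11271 genes, which are not independent replicates, was 0.952 between proximal 2 and distal 2 and 0.952 between proximal 3 and distal 3. It was 0.869 between the proximal libraries and 0.911 between the distal libraries. Fibroblast markers were present in every library, at very different levels. Decorin (Dcn) was at 2872 and 3671 FPKM in the proximal pair, against 2470 and 2353 FPKM in the distal pair. Ly6a was at 686.9 and 738.2 FPKM, against 1016 and 868.2 FPKM, and Thy1 at 13.61 and 13.26 FPKM, against 17.45 and 10.45 FPKM. All 9 fibroblast markers summed to 13480 and 15120 FPKM, against 11300 and 9809 FPKM. The 6 smooth muscle markers summed to 274.7 and 134.4 FPKM, against 312 and 188.3 FPKM. The 5 pericyte markers summed to 75.3 and 69.3 FPKM, against 52.8 and 56.9 FPKM, but they did not move together. Most of the sum was Pdgfrb, at 64.3 and 58.4 FPKM, against 33.9 and 36.6 FPKM. Cspg4 went the other way, at 7.25 and 7.73 FPKM, against 15.05 and 17.65 FPKM. Within each number Rgs5 was also lower and Notch3 higher in proximal stroma, and Kcnj8 changed direction. The 5 endothelial markers summed to at most 9.28 FPKM. Ptprc, the pan-leukocyte marker, stayed at or below 0.12 FPKM and Cd3e was listed at 0 throughout. The other leukocyte markers (Cd68, Lyz2, Cd79a, Itgam) were low but above 0 in every library, with Cd68 at 0.749 to 1.87 FPKM. All 6 leukocyte markers summed to 2.53 and 4.08 FPKM in the proximal pair, against 3.09 and 4.07 FPKM in the distal pair. Epithelial markers were present and uneven: all 8 on the list (Epcam, Cdh1, Krt5, Krt8, Krt14, Krt18, Cd24a, Itga6) were highest in proximal 3 and next highest in distal 3. Their summed level was 37.9 FPKM in proximal 2 and 274 FPKM in proximal 3, against 35.0 FPKM in distal 2 and 89.5 FPKM in distal 3. The 5 luminal secretory markers, of which Spink1 was listed at 0, summed to 104 and 328 FPKM in the proximal pair, against 187 and 257 FPKM in the distal pair. The 8 genes of the dissociation response, which tissue digestion is known to induce, summed to 15830 and 10260 FPKM in the proximal pair, against 10750 and 4994 FPKM in the distal pair.

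**Figure D1:**
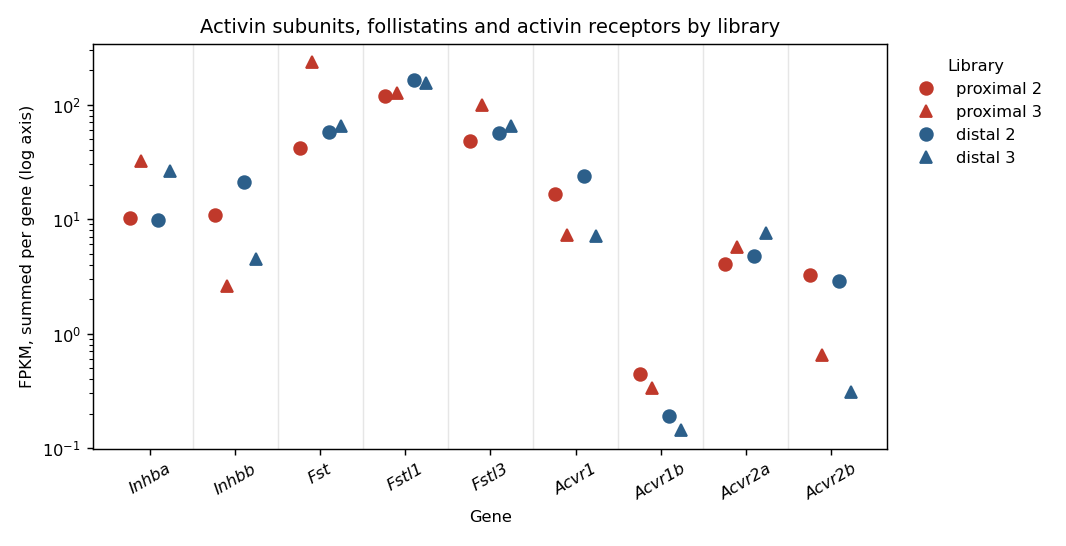
FPKM summed per gene (log axis) for the 9 genes in each library, with proximal libraries in red, distal libraries in blue, circles for number 2 and triangles for number 3. Fstl1 lay between 119 and 163 FPKM and Acvr1b between 0.143 and 0.441 FPKM. Library number separated every gene except Fstl1 and Acvr1b, as it did 70.6% of all tested genes.

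The activin subunits went opposite ways by library number. Inhba, the subunit of activin A, lies on chromosome 13 at 16011851 to 16031621 (plus strand, mm10). It was 3.13 times higher in proximal 3 than in proximal 2 and 2.65 times higher in distal 3 than in distal 2. Between regions it differed little, at 1.04 times the distal value within number 2 and 1.22 times within number 3. The regions overlapped, and the log2 difference, proximal minus distal, was 0.16 ± 0.71 (SE; adjusted p = 0.99991, limma), with a 95% interval from -1.65 to 1.97. The transcript model in the files runs from 16014451 to 16027211 and is 1553 bases long. The annotated last exon goes on for another 4410 bases, and fragments from there were outside this model.

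Inhbb, the subunit of activin B, lies on chromosome 1 at 119415465 to 119422248 (minus strand). It stood at 10.9 FPKM (proximal 2) and 2.59 FPKM (proximal 3), against 20.9 FPKM (distal 2) and 4.47 FPKM (distal 3). Both libraries numbered 3 were low, at 0.238 times the number 2 value in proximal and 0.213 times in distal stroma. Within each number the proximal library was below the distal one, at 0.519 times its value in number 2 and 0.580 times in number 3. Across numbers the regions overlapped, since proximal 2 lay above distal 3. The log2 difference was -0.75 ± 0.90 (SE; adjusted p = 0.99991, limma), with a 95% interval from -3.03 to 1.54.

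The makeup of the subunit pool therefore differed by number more than by region. Inhba made up 48.6% of the summed Inhba and Inhbb FPKM in proximal 2 and 92.5% in proximal 3, against 32.1% in distal 2 and 85.4% in distal 3. Inhbb had the higher FPKM in both libraries numbered 2 and Inhba in both numbered 3. In proximal 2 the deposited bounds overlapped, at 9.22 to 11.3 FPKM for Inhba and 10.2 to 11.5 FPKM for Inhbb. The sum of the subunits moved less, at 21.1 FPKM (proximal 2) and 34.7 FPKM (proximal 3), against 30.8 FPKM (distal 2) and 30.7 FPKM (distal 3). The inhibin alpha subunit gene Inha, whose product pairs with a beta subunit to form inhibin, an activin antagonist, was low at 1.33 and 0.354 FPKM in the proximal pair, against 0.569 and 0.0924 FPKM in the distal pair.

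Follistatin is made from alternatively spliced messages, and the files hold 3 of them. Fst lies on chromosome 13 at 114452290 to 114458951 (minus strand). Their lengths of 2561, 2558 and 2861 bases each match the splice structure of a GENCODE transcript once its outer ends are moved to those of the files. The 2561 and 2558 base messages, called the long form here, read on into an acidic tail and encode precursors of 344 and 343 residues. The 2861 base message, the short form, takes an acceptor site 300 bases earlier in the last intron, meets a stop codon at once and encodes a precursor of 317 residues. The protein without the tail is known to bind cell-surface heparan sulphate, whereas the one with the tail is the main circulating form. The coding ends of both forms are shown here because the files separate them, starting 30 bases before the end of exon 5, with the stretch coded after the shared part in capitals, at chr13:114453423-114454309 for the long form and chr13:114453804-114454309 for the short form. In the short form the capitals mark the stop codon, which spans the splice junction.
Fst long form: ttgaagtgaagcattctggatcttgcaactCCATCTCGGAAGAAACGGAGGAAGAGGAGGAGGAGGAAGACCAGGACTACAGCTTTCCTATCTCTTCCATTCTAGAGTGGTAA
Fst short form: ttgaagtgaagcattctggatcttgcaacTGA

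Of the 27 codons of the tail before the stop, 12 were GAA, GAG, GAC or GAT, which encode acidic residues. The 2 long messages differ by 3 bases at the start of exon 5, shown in capitals within chr13:114454493-114455135.
Fst long form with the 3 bases: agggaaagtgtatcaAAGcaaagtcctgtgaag
Fst long form without them: agggaaagtgtatcacaaagtcctgtgaag

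Fst was highest in 1 library, proximal 3. The gene total was 41.9 FPKM (proximal 2) and 234 FPKM (proximal 3), against 57.3 FPKM (distal 2) and 65.2 FPKM (distal 3). Proximal 2 was the lowest library and proximal 3 the highest, so the proximal values enclosed the distal ones. Within number 2 the proximal value was 0.732 times the distal one, and within number 3 it was 3.59 times the distal one. The log2 difference was 0.69 ± 0.81 (SE; adjusted p = 0.99991, limma), and it was -0.53 without proximal replicate 3 and 1.92 without proximal replicate 2. All 8 epithelial markers were also highest in proximal 3, for example keratin 8 (Krt8) at 8.55 FPKM (proximal 2) and 68.8 FPKM (proximal 3), against 4.63 FPKM (distal 2) and 11.3 FPKM (distal 3). The part of epithelial RNA in the Fst level was not tested. In bulk samples fewer cells of a type and less RNA per cell cannot be told apart.

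**Figure D2:**
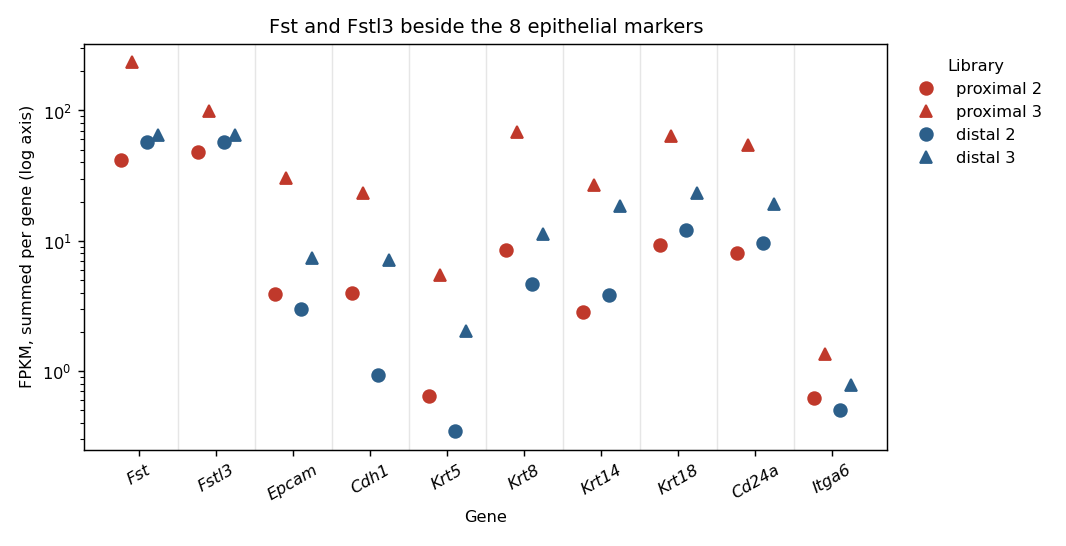
FPKM (log axis) of Fst and Fstl3 beside the 8 epithelial markers, with proximal libraries in red, distal libraries in blue, circles for number 2 and triangles for number 3. All 10 genes were highest in proximal 3 and next highest in distal 3.

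The long form of Fst was the more abundant one in every library. The summed long messages stood at 27.1 FPKM (proximal 2) and 178 FPKM (proximal 3), against 37.2 FPKM (distal 2) and 52.1 FPKM (distal 3). The short message was at 14.8 and 55.6 FPKM in the proximal pair, against 20.0 and 13.1 FPKM in the distal pair. Its share of Fst was 35.4% in proximal 2 and 23.8% in proximal 3, against 35.0% in distal 2 and 20.1% in distal 3. The share thus differed by 0.4 percentage points between regions within number 2 and by 3.7 points within number 3, while both libraries numbered 3 lay below both numbered 2. The version without the 3 bases made up 35.6% and 25.1% of the long messages in proximal 2 and proximal 3 and 29.9% and 26.7% in distal 2 and distal 3. Cufflinks divides shared fragments among overlapping transcripts, so these shares rest on the fragments that tell the messages apart, and they carry no test here.

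**Figure D3:**
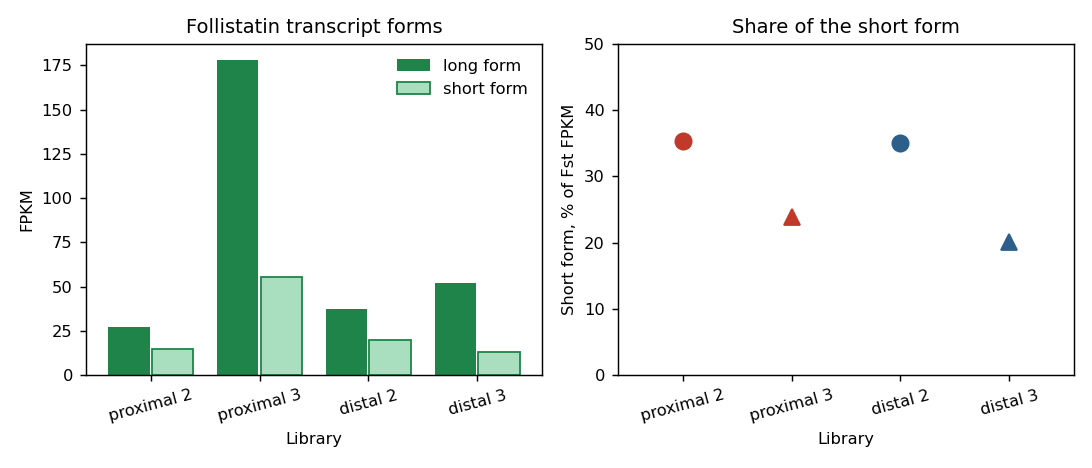
Left, FPKM of the long and short forms of Fst in each library (bars from 0); right, the share of the short form in percent of Fst FPKM, with proximal in red and distal in blue. Proximal 3 had the highest level of both forms, and the short form made up 20.1% to 23.8% in libraries numbered 3 and 35.0% to 35.4% in those numbered 2.

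Fstl3, a secreted activin binder without the heparin-binding site of follistatin, lies on chromosome 10 at 79777272 to 79782630 (plus strand). It stood at 47.9 FPKM (proximal 2) and 99.6 FPKM (proximal 3), against 56.9 FPKM (distal 2) and 65.2 FPKM (distal 3). As with Fst, proximal 2 was lowest and proximal 3 highest, and the regions overlapped. The log2 difference was 0.18 ± 0.44 (SE; adjusted p = 0.99991, limma), and -0.34 without proximal replicate 3.

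Fstl1 was the steadiest member and the 1 tested member whose regions did not overlap. It encodes a secreted glycoprotein related to follistatin by a shared domain and is not known mainly as an activin binder. The gene lies on chromosome 16 at 37776873 to 37836514 (plus strand). Its level was 119 FPKM in proximal 2 and 125 FPKM in proximal 3, against 163 FPKM in distal 2 and 154 FPKM in distal 3. Both proximal libraries were below both distal ones, which was so for 8.64% of all tested genes, and in either direction the regions did not overlap for 21.6% of genes. The proximal mean was 122 ± 3.97 FPKM and the distal mean 158 ± 6.76 FPKM (SD, n = 2 each). The log2 difference of -0.37 ± 0.29 (SE) did not pass the test (adjusted p = 0.99991, limma), and its 95% interval ran from -1.10 to 0.36. With any 1 library left out it stayed between -0.41 and -0.33.

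Messages of the activin binders exceeded those of the subunits in all 4 libraries. Summed Fst and Fstl3 were 4.25 times summed Inhba and Inhbb in proximal 2 and 9.62 times in proximal 3, against 3.71 times in distal 2 and 4.25 times in distal 3. The high value in proximal 3 went with the 234 FPKM of Fst there. These are ratios of message per transcript length and say nothing of protein.

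Among the type II receptors Acvr2a was the higher one in every library. Acvr2a, on chromosome 2 at 48814109 to 48903269 (plus strand), stood at 4.07 FPKM (proximal 2) and 5.67 FPKM (proximal 3), against 4.77 FPKM (distal 2) and 7.61 FPKM (distal 3). Within each number the proximal value was lower, but the regions overlapped, and the log2 difference was -0.28 ± 0.45 (SE; adjusted p = 0.99991, limma). Its last exon overlaps that of Orc4 on the opposite strand, and without strand reads in the overlap cannot be told apart.

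Acvr2b, on chromosome 9 at 119402118 to 119434995 (plus strand), was at 3.26 FPKM (proximal 2) and 0.650 FPKM (proximal 3), against 2.87 FPKM (distal 2) and 0.307 FPKM (distal 3). It separated by number, with the number 3 library at 0.199 times the number 2 library in proximal and 0.107 times in distal stroma. The log2 difference between regions was 0.24 ± 0.74 (SE; adjusted p = 0.99991, limma). Acvr2a was therefore 1.25 times Acvr2b in proximal 2 and 8.72 times in proximal 3, against 1.66 times in distal 2 and 24.8 times in distal 3. In proximal 2 the deposited bounds overlapped, at 3.70 to 4.45 FPKM for Acvr2a and 2.67 to 3.85 FPKM for Acvr2b. The Acvr2b models in the files end at 119433506. An annotated last exon goes on to 119434995, and fragments from there were outside these models.

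The files list 2 Acvr2b messages, of 1629 and 1701 bases, and the FPKM of the gene lay in the shorter one in every library. Their lengths match a pair of annotated splice structures that differ by a stretch of 72 bases, or 24 codons, that keeps the reading frame. The longer message was listed at 0 in all 4 libraries, with deposited upper bounds of 0.0475 and 0.0458 FPKM in the proximal pair, against 0.0436 and 0.0389 FPKM in the distal pair. The stretch is shown in capitals between 30 bases of flank on either side, at chr9:119428323-119428454, because it is what sets the listed message apart from the detected one.
Acvr2b longer message, listed at 0: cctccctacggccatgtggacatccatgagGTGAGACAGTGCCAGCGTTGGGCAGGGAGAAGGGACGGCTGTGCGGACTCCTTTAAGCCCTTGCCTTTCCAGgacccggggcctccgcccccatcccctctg
Acvr2b shorter message, detected: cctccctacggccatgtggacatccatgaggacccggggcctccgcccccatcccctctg

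Type I receptors differed widely in level. Acvr1, which encodes ALK2 and serves mainly BMP ligands, lies on chromosome 2 at 58388644 to 58567157 (minus strand). It was at 16.7 FPKM (proximal 2) and 7.30 FPKM (proximal 3), against 23.9 FPKM (distal 2) and 7.07 FPKM (distal 3). Libraries numbered 3 were the lower ones in both regions, and the log2 difference between regions was -0.23 ± 0.70 (SE; adjusted p = 0.99991, limma). Its 3 messages, of 2776, 3053 and 3298 bases, match annotated structures that share their start and stop codons and differ in exons before the start codon. The 3298 base message was listed at 0 in the proximal pair, against 2.75 FPKM (distal 2) and 1.59 FPKM (distal 3). Deposited upper bounds of the 2 listed zeros were 0.0231 and 0.0223 FPKM. As for Fst, Cufflinks divides fragments shared by these overlapping messages. The listed zeros therefore rest on the few stretches that differ, and a difference between regions in this message was not tested. The 2776 base message held most of the gene's FPKM, at 81.8% (proximal 2) and 65.6% (proximal 3), against 71.4% (distal 2) and 58.0% (distal 3).

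Acvr1b, which encodes ALK4, the usual type I receptor of activin, lies on chromosome 15 at 101174067 to 101213684 (plus strand) and did not reach the minimum for the test. Its deposited transcript model ends at 101212601, before the annotated end of the gene, and fragments from beyond were outside this model. Acvr1b was at 0.441 FPKM in proximal 2 and 0.337 FPKM in proximal 3, against 0.192 FPKM in distal 2 and 0.143 FPKM in distal 3. Both proximal values were above both distal ones, but the deposited bounds within a library were wide: 0.297 to 0.585 FPKM in proximal 2 and 0.214 to 0.460 FPKM in proximal 3, against 0.101 to 0.282 FPKM in distal 2 and 0.0685 to 0.218 FPKM in distal 3. With no filter on low values its log2 difference was 0.25 ± 0.08 (SE; adjusted p = 0.936, limma over 18934 genes). Acvr1c, which encodes the related receptor ALK7, did not exceed 0.223 FPKM. By contrast Tgfbr1, the type I receptor of TGF-beta (both chosen after their values were seen), was at 21.4 and 46.9 FPKM in the proximal pair, against 21.2 and 61.1 FPKM in the distal pair.

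Ordered by mean FPKM over the 4 libraries, the members ran Fstl1, Fst, Fstl3, Inhba, Acvr1, Inhbb, Acvr2a, Acvr2b and Acvr1b. The ranges of neighbours overlapped in this order except between Fstl3 and Inhba and between Acvr2a and Acvr2b. Inhba exceeded Acvr1 in 2 of 4 libraries and Inhbb exceeded Acvr2a in 2 of 4, so the middle of the order depended on library number.

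Of 8 tested members 0 passed in either direction, as did 0 of 11271 genes (0.0%; limma, Benjamini-Hochberg adjusted over all tested genes), and 0 members had an unadjusted p under 0.05, against 356 of all genes (3.16%). Leaving out any 1 library gave 25 to 54 called genes, but such a fit has 1 library in a region and takes its spread from the other region alone, so its p-values say nothing of how stable the count is. Of the members, 4 had higher and 4 lower proximal values, with a median log2 difference of -0.03 against 0.09 over all genes. Library number separated 7 of the 8: both libraries numbered 3 were above both numbered 2 for Inhba, Fst, Fstl3 and Acvr2a and below them for Inhbb, Acvr1 and Acvr2b. Over all tested genes 20.2% were above, 50.4% below and 70.6% either way, so the members' count of 7 was not far from the background. With 2 libraries a side, the smallest two-sided p of an exact permutation test is 0.333.

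**Figure D4:**
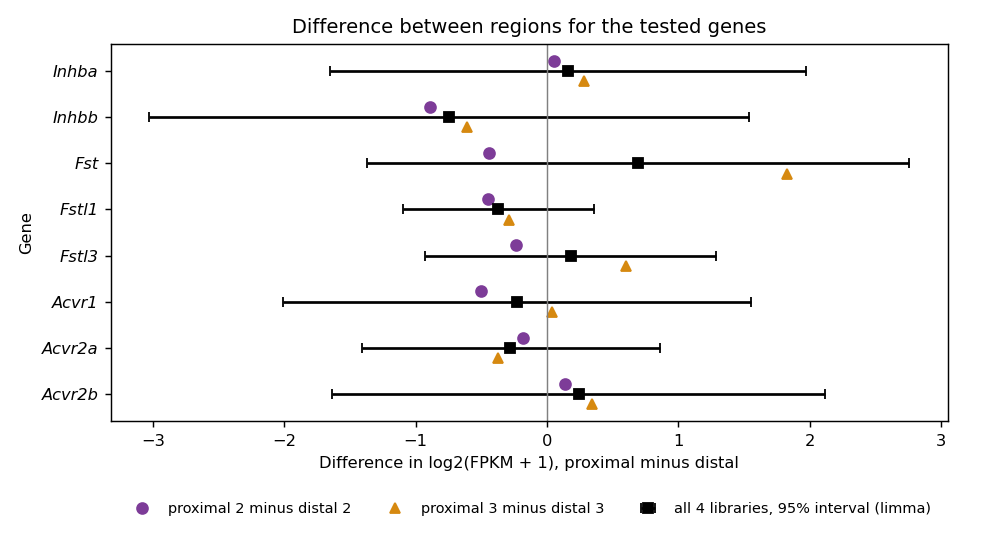
Difference in log2(FPKM + 1), proximal minus distal, for the 8 tested genes: black squares with 95% intervals from the fit over 4 libraries, circles for number 2 and triangles for number 3. Every interval included 0, and the 2 within-number values had opposite signs for Fst, Fstl3 and Acvr1.

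With region as the only term, other genes of the pathway gave no call either. With library number as a second term some were called, as given in the closing section on processing. Among 5 tested ligands that share activin receptors, 3 had higher and 2 lower proximal values and 0 passed. Bmp4, a BMP ligand, was at 109.5 and 72.9 FPKM in the proximal pair, against 55.5 and 38.4 FPKM in the distal pair. Bmp2, the most abundant of them, was at 105.1 and 105.0 FPKM against 139.8 and 193.6 FPKM. For neither gene did the regions overlap, as for 21.6% of all tested genes, and the log2 differences were 0.94 ± 0.38 and -0.64 ± 0.32 (SE; both adjusted p = 0.99991, limma). Another 12 ligands did not reach the minimum, and of these Inhbe, Mstn, Gdf3 and Bmp10 were listed at 0 throughout.

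Of 8 tested other receptors and co-receptors, 5 had higher and 3 lower proximal values and 0 passed. Tgfbr3, or betaglycan, a co-receptor for TGF-beta and for inhibin, was at 40.8 and 32.7 FPKM in the proximal pair, against 21.8 and 17.3 FPKM in the distal pair, a log2 difference of 0.88 ± 0.34 (SE; adjusted p = 0.99991, limma). Acvrl1, the type I receptor ALK1, was at 15.2 and 17.7 FPKM against 11.8 and 11.6 FPKM. Both genes had proximal libraries above distal ones, as did 13.0% of all tested genes. Tgfbr2, the most abundant on the list, was at 60.5 and 46.2 FPKM against 73.6 and 54.3 FPKM, with overlapping regions.

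Of 10 tested extracellular relatives of follistatin and BMP binders, 8 had higher and 2 lower proximal values, both proximal libraries were above both distal ones for 6 (13.0% of all tested genes), and 0 passed; the median log2 difference was 0.43 against 0.09 over all genes. Spock2, a proteoglycan with a follistatin-like domain, was at 9.55 and 12.5 FPKM in the proximal pair, against 4.28 and 3.77 FPKM in the distal pair, a log2 difference of 1.25 ± 0.40 (SE; adjusted p = 0.99991, limma). Its relative Spock1 was at 1.47 and 1.39 FPKM against 0.191 and 0.0975 FPKM. Sparc, a collagen-binding protein of the same family as Fstl1, was the most abundant, at 1077 and 819 FPKM against 1132 and 849 FPKM, and its regions overlapped.

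Of the convertases that cut activin precursors, Pcsk5 was at 17.0 and 17.4 FPKM in the proximal pair, against 23.1 and 24.5 FPKM in the distal pair, and Furin at 22.2 and 9.84 FPKM against 26.2 and 9.05 FPKM. Both had lower fitted values in proximal stroma, and 0 of the 2 tested passed. The transcripts that position named Pcsk7 were listed at 0 in all 4 libraries. Transcripts left without a gene name were not counted, so this 0 may not cover the whole gene.

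In the intracellular Smad2/3 branch 4 of 15 tested genes had higher and 11 lower proximal values, 0 had regions that did not overlap and 0 passed. Over all tested genes 60.4% had higher proximal values and the regions of 21.6% did not overlap. Smurf1, a ubiquitin ligase acting on Smads and receptors, was at 7.96 and 2.32 FPKM in the proximal pair, against 14.7 and 4.19 FPKM in the distal pair. Pmepa1, a feedback inhibitor that binds Smad2 and Smad3, was at 29.2 and 31.9 FPKM against 70.3 and 26.4 FPKM. The most abundant was the corepressor Tgif1, at 42.5 and 109.6 FPKM against 59.0 and 93.7 FPKM. Number separated 14 of the 15, with 3 genes higher and 11 lower in both libraries numbered 3, against 70.6% of all tested genes (20.2% higher and 50.4% lower).

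Of 17 tested genes often induced through Smad2 and Smad3, 11 had higher and 6 lower proximal values, with a median log2 difference of 0.05, and 0 passed. Tgfbi, a matrix protein named for its induction by TGF-beta, was at 14.9 and 18.2 FPKM in the proximal pair, against 4.85 and 5.45 FPKM in the distal pair, a log2 difference of 1.51 ± 0.38 (SE; adjusted p = 0.908, limma). Junb, the most abundant on the list, was at 3811 and 2172 FPKM against 3196 and 1600 FPKM, and its regions overlapped. This list also holds Fst and Fstl3.

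The tested genes most like each of 3 members were sought by distance between mean-centred log2(FPKM + 1) values over the 4 libraries, a description that 4 points allow for many genes. Nearest to Inhba were the transferrin receptor gene Tfrc (distance 0.12), Amigo2 (0.12) and the cholesterol hydroxylase gene Ch25h (0.13). Nearest to Inhbb were Basp1 (0.23), Arf6 (0.25) and Shisal1 (0.28), and nearest to Fst were Ndrg1 (0.25), Cdo1 (0.38) and Trib3 (0.39). Ndrg1 stood at 63.3 FPKM (proximal 2) and 278 FPKM (proximal 3), against 76.2 FPKM (distal 2) and 94.1 FPKM (distal 3), so it too was highest in proximal 3.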

How the data were processed

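RNA of 4 sorted stromal samples was reverse transcribed with a SMART-Seq v4 kit (random and oligo-dT primers) and sequenced on an Illumina HiSeq, per the labels' protocols. The kit does not mark strand. The submitters' processing notes name bcl2fastq 1.8.3, TopHat2 0.6, Cufflinks 0.0.6 and mm10, with roles, order and settings not given in the sources used here.

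FPKM with lower and upper bounds and a coverage signal for 63241 transcripts is what the authors deposited, per the file headers. No read counts are given, so depth is unknown. The coverage signal that the authors deposited, divided by FPKM, had medians of 5.22 (proximal 2), 5.38 (proximal 3), 5.68 (distal 2) and 6.34 (distal 3). The bounds cover estimation within a library only.

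Position against GENCODE M21 (mm10) gave transcripts their gene names (55602 named, 87.92%, holding 96.35% of the FPKM), and FPKM were summed per gene. A name needed span overlap times length similarity of at least 0.8 with no rival gene near, or both ends within 100 bp of exons of 1 gene, or a span similarity of 0.5 with rivals under 0.25. Member transcripts were tied to a splice structure where the length matched exactly after moving the outer ends to those of the files, as held for 15 of 16. Sequences come from the GENCODE M21 transcripts. The 7 genes with a failed or capped estimate were left out.

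Genes with at least 1 FPKM in 2 of 4 libraries were tested as log2(FPKM + 1), so differences understate those of low genes. The fit used limma 3.58.1 (R 4.3.3) with region as the only term, mean trend, two-sided tests, Benjamini-Hochberg adjustment and a threshold of 0.05. Its code was checked on simulated data with independent noise and no effect of library number, unlike these libraries. Python 3.11.15 was used for naming and figures. The text names all members, the 2 genes with the smallest p and the most abundant gene of each pathway list, and the 3 genes nearest to Inhba, Inhbb and Fst. One gene that this rule names is not reported here. Members and lists were chosen with earlier results of these data known. Alternatives changed the pseudocount, the filter, the scaling, the naming, the transcripts summed, a library block and the libraries used.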

Additional observations from a re-analysis of the deposited data

How the results depend on the processing

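Of 71 member values under the alternatives that kept all 4 libraries, 71 kept their direction and stayed uncalled; the smallest adjusted p was 0.0868, for Inhbb with the replicate block (limma). These were pseudocounts of 0.1 and 0.01, no filter and a filter of 5 FPKM, quantile normalization, median ratio scaling, both naming and transcript choices and the block. The filters and the block cannot change the log2 difference of a gene kept in the fit, so a kept direction there carries no weight. The naming choice left every tested member's value unchanged. The transcript choice could not move a member whose FPKM lay in 1 transcript. Acvr2b moved most, to 0.62 with a pseudocount of 0.01 and 0.03 under quantile normalization, from 0.24.

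The replicate block, with library number as a second term, gave 465 called genes (4.13%) against 0 without it, and 0 members were among them. Named pathway genes called there were Bmp4, Tgfbr3, Spock1, Spock2 and Tgfbi (adjusted p from 0.00826 to 0.0390, limma). Deviations of same-numbered libraries correlated at 0.815 across genes, but the labels give the numbers no meaning beyond naming samples.

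With 1 library left out, 25 to 54 genes were called, and no member (smallest adjusted p 0.116, for Fst without proximal replicate 2; limma). Such fits mix region with number, and they assume that the lone library of a region varies like the pair of the other, so the lack of a called member there carries no weight. The log2 differences then spanned -0.61 to 0.94 for Inhba (the first without proximal replicate 3, the last without proximal replicate 2), -1.75 to 0.26 for Inhbb (distal replicates 3 and 2 omitted), -0.53 to 1.92 for Fst and -0.34 to 0.70 for Fstl3 (proximal replicates 3 and 2 omitted for both). They spanned -1.04 to 0.59 for Acvr1 (distal replicates 3 and 2 omitted), -0.57 to 0.01 for Acvr2a (distal replicates 2 and 3 omitted) and -0.55 to 0.92 for Acvr2b (distal replicate 3 and proximal replicate 3 omitted; without either library numbered 2 it did not reach the filter). Among pathway genes it ranged from -0.27 to 0.14 for Sparc, from -0.77 to 0.66 for Furin, from -1.53 to 0.07 for Smurf1, from -1.18 to 0.20 for Pmepa1, from -0.79 to 0.55 for Tgif1 and from -0.15 to 0.85 for Junb.

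Scaling moved the median of all genes from 0.09 to -0.03 (quantile normalization) and -0.01 (median ratio scaling). Depth is unknown, so no limit from fragment counting can be given. The 95% intervals in the report come from the fit with region as the only term, which counts differences between library numbers as spread. With the replicate block the SE was 0.19 instead of 0.90 for Inhbb, 0.18 instead of 0.71 for Inhba and 0.20 instead of 0.29 for Fstl1.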
